A study of Mus musculus with 18 samples.

Results

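The genes described here are the members of 6 families of innate immune receptors: the Toll-like receptors (TLR), the C-type lectin domain genes (CLEC), the leukocyte immunoglobulin-like and paired immunoglobulin-like receptors (LILR and PIR), the sialic acid-binding SIGLEC genes, the CD300 genes and the NLRP genes. Within these families, members were taken by gene symbol alone; the families themselves were picked with earlier results of these data known. The symbols picked 59 of 25628 rows in the first count table and 55 of 26903 in the second, 68 different genes in all, with 46 present in both. CLEC was the largest family with 26 genes, followed by TLR with 12, NLRP with 10, CD300 with 8 and SIGLEC and LILR and PIR with 6 each.

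RNA came from the erythroleukemic line #763 of TgSpi1 mice, leukemic erythroid cells of bone marrow origin in which a transgene gives an excess of the myeloid transcription factor SPI1, also called PU.1, and which were grown with erythropoietin. All groups carried a doxycycline-inducible short hairpin RNA against Spi1. In experiment 1, Exp1_NoDox had no doxycycline and Exp1_Dox had it for 48 h. In experiment 2, NoDox_DMSO had the vehicle DMSO alone, Dox_DMSO had doxycycline for 48 h and DMSO, NoDox_Entinostat had 3 µM entinostat for 6 h, and Dox_Entinostat had both agents; entinostat inhibits histone deacetylases and is named in the labels as acting on HDAC1 and HDAC3. Each of the 6 groups had 3 libraries, described as biological replicates of 1 cell line, and no group is labelled as carrying a control hairpin, so doxycycline itself and the loss of Spi1 RNA cannot be told apart.

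Toll-like receptors recognise microbial lipids, proteins and nucleic acids at the cell surface or in endosomes and signal through MYD88 or TICAM1 to NF-kB and IRF factors. C-type lectins, SIGLEC, CD300, LILR and PIR proteins sit on the surface of myeloid cells; some signal through adaptors with an activating ITAM motif (TYROBP, FCER1G), others through inhibitory ITIM motifs that recruit the phosphatase PTPN6. NLRP proteins are cytosolic sensors, several of which assemble inflammasomes. SPI1 is known as the master regulator of myeloid genes, many receptors of these families among them, and red cell precursors normally hold little of them. The families are wider than the name innate receptor: Clec16a is a regulator of autophagy and mitophagy, Clec11a and Clec3b encode secreted proteins, Clec2f is a pseudogene in the annotation, and the Nlrp2, Nlrp4 and Nlrp5 genes are known from the oocyte.

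Library totals lay between 82.7 and 114 M counts in experiment 1 and between 43.1 and 48.9 M in experiment 2. Levels are in CPM, counts per M counts after TMM scaling, and changes are on the log2 scale with their standard error (±), each with an edgeR p adjusted over all genes and called at a threshold of 0.05. This standard error is approximate: it is the size of the change divided by the square root of the edgeR F statistic. Spi1 itself stood at 379, 455 and 459 CPM in Exp1_NoDox and at 133, 125 and 132 in Exp1_Dox. It stood at 200, 259 and 251 CPM in NoDox_DMSO and 59.5, 126 and 105 in Dox_DMSO, and at 221, 480 and 482 in NoDox_Entinostat and 98.5, 162 and 132 in Dox_Entinostat. The first NoDox_Entinostat library (mean correlation with its own group 0.944, the others 0.969 and 0.972) and the first Dox_DMSO library (0.964, the others 0.981 and 0.980) stood apart. Some results that change without them are given both ways, and others are not. Erythroid markers were high in every group: 14 of the 15 listed exceeded 1 CPM in each, the whole list summed to between 4048 and 8495 CPM per library, and Gata1, Klf1 and Tal1 were present throughout. Tfrc alone made up between 31.8% (Dox_Entinostat) and 64.9% (NoDox_DMSO) of the list's mean sum in a group.

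Most of the receptor genes were silent or close to it. In experiment 1, whose table holds no value under 1, 25 of 59 stood at that minimum in every library and 43 never reached 10 counts, and in experiment 2, 29 of 55 never reached 10 counts. Only 4 genes, all CLEC, had a group mean of at least 1 CPM in experiment 1 (Clec16a, Clec4d, Clec2d and Clec10a), and 14 did in experiment 2. All 7 CD300 genes of experiment 1 stood at the file minimum, and neither CD300 gene of experiment 2 reached 10 counts in any library. Among genes under 1 CPM in every group, the 5 highest were Lilrb4a, Clec2f, Clec11a, Tlr3 and Clec1b.

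**Figure D1:**
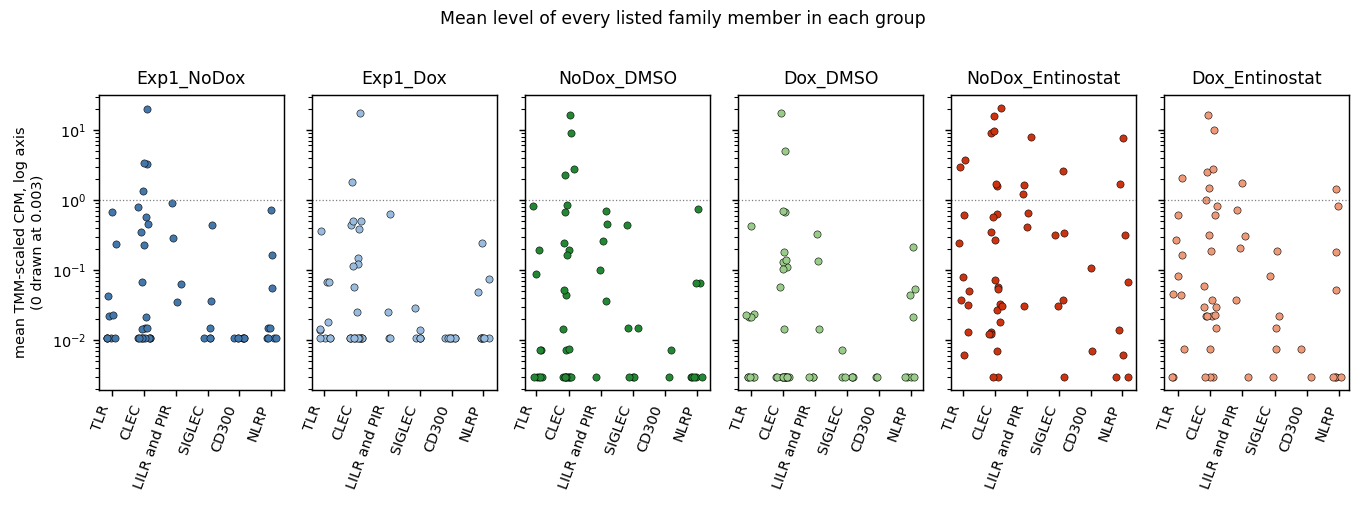
Mean level of each listed gene (points) by family in each of the 6 groups, in TMM-scaled CPM on a log axis, with genes at 0 drawn at 0.003 and a dotted line at 1 CPM; points are spread sideways only to be visible. In experiment 1 the row of points near 0.01 are genes at the file minimum of 1 count, and in experiment 2 more genes stand above 1 CPM in NoDox_Entinostat than in the other groups.

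Doxycycline lowered a small set of these receptors in all 3 settings. In experiment 1, 6 of the 15 tested genes fell (8.36% of all genes tested were called lower) and 0 rose (5.26% called higher; 0 at an unadjusted p under 0.05 by edgeR, and 0 with DESeq2): Siglecf, Pirb, Clec10a, Clec4d, Nlrp10 and Tlr6. In DMSO, 7 of 23 fell (5.53% of all genes) and 0 rose (3.77% of all genes; 1 at an unadjusted p under 0.05, and 1 with DESeq2, which was Clec2f, beside 4.97% of all genes), and these were the same 6 genes and Clec4e. In entinostat, 9 of 23 fell (15.1% of all genes) and 0 rose (8.96% of all genes; 0 at an unadjusted p under 0.05, and 0 with DESeq2): the 6 genes of experiment 1 with Tlr2, Lilra6 and Siglech. Median log2 fold changes of the tested receptors were -0.95 in experiment 1, -0.95 in DMSO and -0.85 in entinostat, beside 0.02, 0.05 and -0.08 for all genes tested; with genes at 0 counts set to their bound, the DMSO median was -1.02.

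These counts are descriptions of genes that passed a filter on low counts. In experiment 1 all 15 reached the filter level in every Exp1_NoDox library and 10 did so in every Exp1_Dox library; in experiment 2, 22 of 23 did so in NoDox_Entinostat, 15 in Dox_Entinostat, 10 in NoDox_DMSO and 5 in Dox_DMSO. A gene tested through its high group alone can only be found lower elsewhere. Libraries of experiment 1 with the same number met the limit set for pairing, and a fit with a replicate block had 13 of 15 lower, beside 24.7% of all genes (8.36% without the block), the added receptors being Clec4e, Tlr2, Clec2d, Clec2l, Clec11a, Clec16a and Lilrb4a. Without the first Dox_DMSO and NoDox_Entinostat libraries, 11 receptors fell with doxycycline in DMSO, and 14 fell and 1, Clec2d, rose with it in entinostat. Pira2 and Tlr4, which the filter had left out before, were among the 14. Calls over all genes rose as well, to 13.9% lower in DMSO and to 35.7% lower and 26.1% higher in entinostat.

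Entinostat raised receptors of every family but CD300, which had no tested gene. Without doxycycline, 17 of 23 tested receptors rose (30.3% of all genes tested) and 1, Clec2d, fell (16.9% of all genes). With doxycycline, 16 rose (33.9% of all genes) and 1, Clec16a, fell (29.9% of all genes). The filter favoured such rises: 22 of the 23 reached its level in every NoDox_Entinostat library and 10 in every NoDox_DMSO library. A gene kept through an entinostat group alone could hardly be found lower with entinostat. These counts are therefore descriptions and not a test of the receptors as a set. By family, without doxycycline, the rises were 6 of 10 CLEC genes, 3 of 3 TLR, 3 of 3 NLRP, 3 of 3 SIGLEC and 2 of 4 LILR and PIR genes. The median log2 fold change of the tested receptors was 2.21 without and 2.26 with doxycycline (2.22 with genes at 0 counts set to their bound), beside 0.07 and 0.14 for all genes tested. When genes had to reach 1 CPM in 3 or more libraries, which only some of the 23 receptors did, 9 and 10 receptors rose. Of the 12218 genes tested then, 27.4% and 31.6% rose. Same-number libraries of these comparisons also met the pairing limit, and with the block Clec2l, Lilr4b and Lilrb4a rose as well without doxycycline, at adjusted p of 0.00863, 0.0449 and 0.0417 (32.7% of all genes were called higher then).

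**Figure D2:**
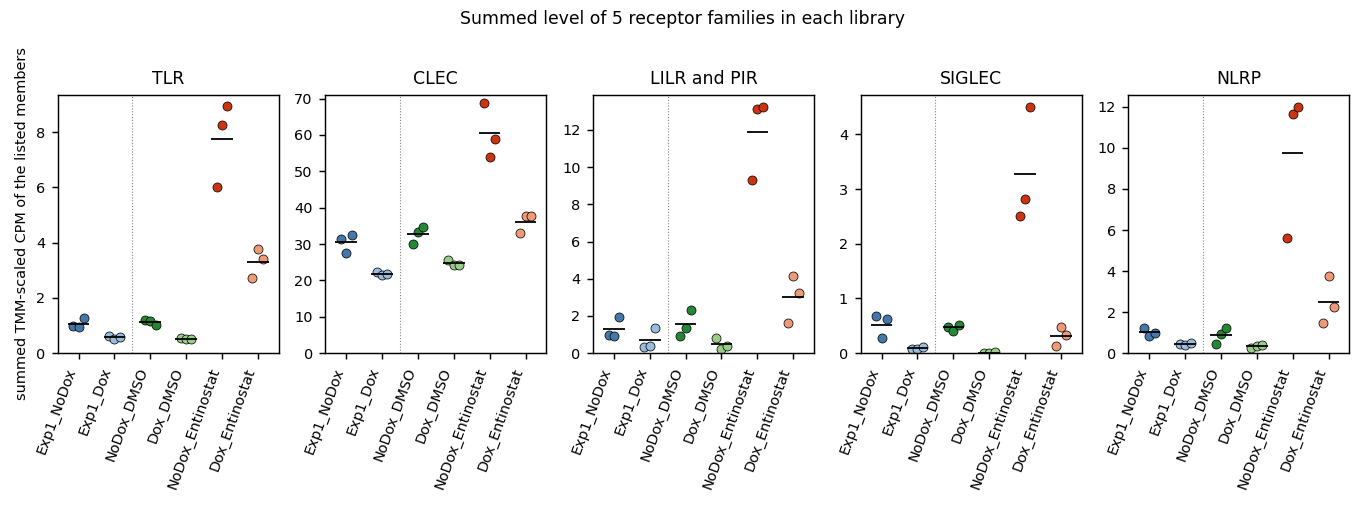
Summed level of the listed genes of 5 families in each library, in TMM-scaled CPM (points, with the mean as a bar), for experiment 1 left of the dotted line and experiment 2 right of it; the 2 tables list partly different genes. The 3 NoDox_Entinostat libraries lie above the other 9 libraries of experiment 2 in each family. In the CLEC panel Clec16a makes up a large share of the sum in the groups without entinostat.

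In summed level, the TLR genes went from 1.21, 1.15 and 1.004 CPM in NoDox_DMSO to 6.01, 8.26 and 8.93 in NoDox_Entinostat. LILR and PIR genes went from 0.944, 1.35 and 2.33 CPM to 9.33, 13.1 and 13.2, and SIGLEC genes from 0.472, 0.413 and 0.524 to 2.50, 2.81 and 4.50. NLRP genes went from 0.449, 0.912 and 1.24 CPM to 5.61, 11.6 and 12 CPM. No NoDox_Entinostat library overlapped the vehicle libraries in any of these families. In Dox_Entinostat the sums were lower than in NoDox_Entinostat in each family: 2.71, 3.77 and 3.41 CPM for TLR, 1.63, 4.14 and 3.26 for LILR and PIR, 0.134, 0.478 and 0.330 for SIGLEC and 1.46, 3.75 and 2.22 for NLRP.

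Promoters of 5 receptors that changed in these comparisons, 2 neighbouring lectins, 2 near copies among the paired receptors and a SIGLEC gene, chosen after their values were seen, are shown for the purine-rich letters that SPI1 is known to bind and for the likeness of the paired receptors. They are the 250 bases before the start of the gene in RefSeq's promoter table on GRCm38.p6, read 5′ to 3′ on the gene's own strand, at chr6:123261857-123262106 (plus strand) for Clec4d, chr6:123289872-123290121 (minus) for Clec4e, chr7:3720383-3720632 (minus) for Pirb, chr7:3915502-3915751 (minus) for Lilra6 and chr7:43351091-43351340 (plus) for Siglecf. Capitals mark GAGGAA and AGGAAGT on either strand, so that GAGGAA on the other strand reads TTCCTC, and the 2 motifs overlap where the letters run GAGGAAGT.
Clec4d: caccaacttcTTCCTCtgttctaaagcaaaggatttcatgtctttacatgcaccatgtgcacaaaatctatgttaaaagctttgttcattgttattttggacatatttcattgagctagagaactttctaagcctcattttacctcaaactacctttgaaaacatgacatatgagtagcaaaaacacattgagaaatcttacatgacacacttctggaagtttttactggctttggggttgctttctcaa
Clec4e: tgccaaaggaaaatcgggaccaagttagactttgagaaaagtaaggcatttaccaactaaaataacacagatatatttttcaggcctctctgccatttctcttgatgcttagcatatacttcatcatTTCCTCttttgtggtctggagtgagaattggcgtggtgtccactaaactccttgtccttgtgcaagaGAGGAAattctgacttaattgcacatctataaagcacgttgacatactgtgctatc
Pirb: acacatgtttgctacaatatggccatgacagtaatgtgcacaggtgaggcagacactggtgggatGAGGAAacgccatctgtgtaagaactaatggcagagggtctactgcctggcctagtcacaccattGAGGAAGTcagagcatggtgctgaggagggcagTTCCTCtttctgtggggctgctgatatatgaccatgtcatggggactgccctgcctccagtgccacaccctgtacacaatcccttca
Lilra6: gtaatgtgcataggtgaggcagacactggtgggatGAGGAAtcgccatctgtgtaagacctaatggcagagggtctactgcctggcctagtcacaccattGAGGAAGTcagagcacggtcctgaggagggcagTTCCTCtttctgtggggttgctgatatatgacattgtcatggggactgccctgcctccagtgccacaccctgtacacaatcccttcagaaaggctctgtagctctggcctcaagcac
Siglecf: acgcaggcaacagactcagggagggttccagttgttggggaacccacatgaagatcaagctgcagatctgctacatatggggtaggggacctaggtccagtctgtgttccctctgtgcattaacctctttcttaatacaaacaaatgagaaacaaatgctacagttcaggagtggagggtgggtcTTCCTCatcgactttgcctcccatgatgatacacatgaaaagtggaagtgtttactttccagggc
Pirb and Lilra6 each hold 3 GAGGAA and 1 AGGAAGT in these bases, Clec4e holds 2 GAGGAA, and Clec4d and Siglecf hold 1 each. Over the whole 300 bases of the table's window, which runs 50 bases past the start, Pirb and Lilra6 were 86.33% identical, and Lilra6 and its neighbour Pira2 95.67%. The other pairs among the 5 ranged from 47.33% to 54.0%. In that window GAGGAA was found in 32 of 65 promoters (49.2%) of the receptors in the count tables and in 28.3% of all 32851 promoters, and AGGAAGT in 16 of 65 (24.6%) and in 9.35% of all. Copies of a gene share these letters, so the promoters are not independent, and a match is a description of letters and not a binding site.

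The CLEC genes held the highest levels. Clec4e (Mincle; ENSMUSG00000030142, mm10 chromosome 6, 123281789 to 123289870) encodes a receptor for microbial glycolipids and products of dying cells that signals through FCER1G. It stood at 0.562, 0.521 and 0.917 CPM in NoDox_DMSO, 0.246, 0.0864 and 0.0862 in Dox_DMSO, 30.1, 15.1 and 15.9 in NoDox_Entinostat and 14.8, 16.0 and 17.9 in Dox_Entinostat. Both entinostat groups lay far above both vehicle groups, and the 2 entinostat groups overlapped. Entinostat changed Clec4e by 4.93 ± 0.37 without doxycycline (adjusted p = 1.24e-06) and by 6.87 ± 0.44 with it (adjusted p = 3.01e-07).

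Doxycycline lowered Clec4e in DMSO (-2.27 ± 0.47, adjusted p = 0.00672), while in entinostat its change was -0.33 ± 0.30 (adjusted p = 0.408). The test of the difference between these 2 changes gave 1.94 ± 0.56 with an adjusted p of 0.245 by edgeR and 0.0483 by DESeq2. Without the 2 libraries that stood apart it gave 2.97 ± 0.43 (adjusted p = 6.01e-05), and it passed without the first Dox_DMSO or the first NoDox_Entinostat library alone (adjusted p of 0.0223 to 0.0404, and up to 0.597 without another library). In experiment 1 the Exp1_NoDox libraries had 0.443, 0.287 and 0.620 CPM of Clec4e and the Exp1_Dox libraries 0.0311, 0.142 and 0.172; the groups did not overlap, and the change of -1.96 ± 0.55 had an adjusted p of 0.0681, or 0.00233 with the replicate block.

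Clec4d (MCL; ENSMUSG00000030144, chromosome 6, 123262111 to 123275265), the neighbour of Clec4e and a partner receptor of the same lectin cluster, was followed next. In experiment 1 the Exp1_NoDox libraries had 3.00, 2.97 and 4.30 CPM and the Exp1_Dox libraries 0.197, 0.305 and 0.641 (-3.17 ± 0.43, adjusted p = 0.00594). In experiment 2 it stood at 2.31, 2.37 and 3.69 CPM in NoDox_DMSO, 0.319, 0.0648 and 0.151 in Dox_DMSO, 14.2, 6.32 and 8.85 in NoDox_Entinostat and 1.63, 1.41 and 1.43 in Dox_Entinostat. The 4 groups did not overlap. Doxycycline changed Clec4d by -3.98 ± 0.46 in DMSO (adjusted p = 0.000105) and by -2.71 ± 0.38 in entinostat (adjusted p = 0.000745), and entinostat by 1.81 ± 0.36 without (adjusted p = 0.00129) and 3.08 ± 0.47 with doxycycline (adjusted p = 0.000135). With both agents Clec4d thus stayed below its NoDox_DMSO level in all 3 libraries, where Clec4e stood above its own; the 2 genes were not tested against each other.

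Other genes of that cluster on chromosome 6 (123106428 to 123289870) were barely seen. Clec4n (Dectin-2) had 18, 17 and 19 counts in NoDox_Entinostat and 10, 19 and 14 in Dox_Entinostat, beside 1 count in NoDox_DMSO and 0 in Dox_DMSO. That made it 47.1-fold higher without doxycycline (counting interval 8.1 to 1890, adjusted p = 0.000272) and at least 14.3-fold higher with it (adjusted p = 0.000145). Clec4a2 stood at the file minimum in every library of experiment 1.

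Clec10a (MGL1; ENSMUSG00000000318, chromosome 11, 70156197 to 70170834), a receptor for galactose and N-acetylgalactosamine known from macrophages, fell with doxycycline and rose with entinostat in every setting tested. It stood at 1.61, 1.05 and 1.42 CPM in Exp1_NoDox and 0.145, 0.122 and 0.172 in Exp1_Dox (-3.20 ± 0.25, adjusted p = 0.00126). In experiment 2 it stood at 1.51, 2.61 and 2.79 CPM in NoDox_DMSO, 0.0491, 0.0864 and 0.194 in Dox_DMSO, 7.46, 9.61 and 10.4 in NoDox_Entinostat and 0.560, 1.32 and 1.08 in Dox_Entinostat. The doxycycline groups lay below their partners without overlap in each setting. The changes were -4.33 ± 0.47 with doxycycline in DMSO (adjusted p = 6.14e-05), -3.21 ± 0.38 in entinostat (adjusted p = 0.000228), and 1.99 ± 0.35 (adjusted p = 0.00053) and 3.11 ± 0.48 (adjusted p = 0.000157) with entinostat without and with doxycycline.

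**Figure D3:**
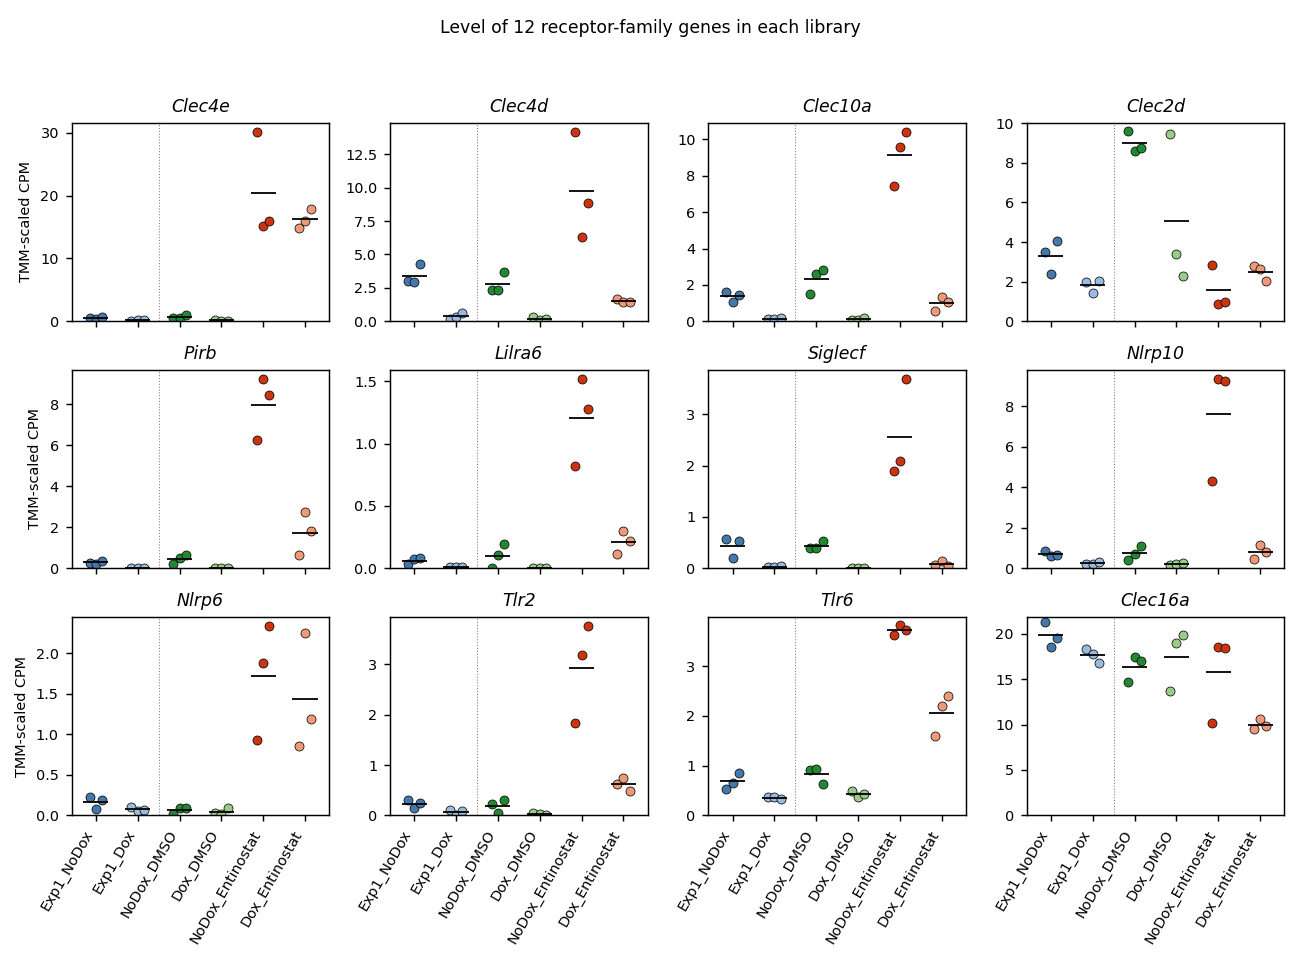
Level of 12 receptor-family genes in each library in TMM-scaled CPM (points), with the group mean as a bar, each panel on its own axis from 0; the dotted line parts the 2 experiments, which were scaled separately. In most panels the NoDox_Entinostat libraries are highest and doxycycline libraries lie lower; Clec2d and Clec16a run otherwise, and in Clec2d the first Dox_DMSO library, at 9.45 CPM, lies with the NoDox_DMSO libraries.

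Clec2d (Clr-b; ENSMUSG00000030157), the ligand by which cells engage the inhibitory NK receptor NKR-P1B, went the other way with entinostat. It stood at 9.59, 8.60 and 8.75 CPM in NoDox_DMSO, 9.45, 3.37 and 2.31 in Dox_DMSO, 2.86, 0.877 and 0.982 in NoDox_Entinostat and 2.80, 2.66 and 2.05 in Dox_Entinostat. Entinostat lowered it without doxycycline (-2.52 ± 0.52, adjusted p = 0.00155), with no overlap between the groups, and with doxycycline its change was -1.01 ± 0.50 (adjusted p = 0.094). Without the first Dox_DMSO library that change was -0.19 (adjusted p = 0.675), and without both libraries that stood apart it was also -0.19 (adjusted p = 0.42). It passed without the third Dox_DMSO or the first NoDox_Entinostat library (adjusted p of 0.029 and 0.0341). The first Dox_DMSO and the first NoDox_Entinostat libraries were the highest of their groups. With all libraries the doxycycline changes were -0.84 ± 0.49 in DMSO (adjusted p = 0.395) and 0.68 ± 0.51 in entinostat (adjusted p = 0.32). Without those 2 libraries Clec2d fell by 1.66 in DMSO (adjusted p = 5.78e-05) and rose by 1.42 in entinostat (adjusted p = 0.000133), and the difference of 3.08 ± 0.32 passed. In experiment 1 it had 3.48, 2.36 and 4.03 CPM in Exp1_NoDox and 1.97, 1.41 and 2.05 in Exp1_Dox, without overlap (-0.86 ± 0.25, adjusted p = 0.0753, with 9.27e-05 under the replicate block; leaving out 1 library gave 0.0364, without the second Exp1_NoDox library, to 0.252).

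Clec16a (ENSMUSG00000068663, chromosome 16, 10545339 to 10744878) was the highest of the receptor-family genes in mean CPM in the 4 groups without entinostat. It stood at 14.7, 17.4 and 17.0 CPM in NoDox_DMSO, 13.7, 18.97 and 19.8 in Dox_DMSO, 10.2, 18.6 and 18.4 in NoDox_Entinostat and 9.53, 10.6 and 9.84 in Dox_Entinostat. The Dox_Entinostat group was low in all 3 libraries, and of the other 9 libraries of experiment 2 the first NoDox_Entinostat library lay within its range. Entinostat changed it by -0.81 ± 0.23 with doxycycline (adjusted p = 0.00769) and by -0.06 ± 0.23 without (adjusted p = 0.858). The difference of -0.75 ± 0.32 had an adjusted p of 0.314, and 4.92e-05 without the 2 libraries that stood apart, when doxycycline in entinostat also lowered it (-0.89, adjusted p = 1.49e-05). In experiment 1 it had 21.3, 18.6 and 19.6 CPM in Exp1_NoDox and 18.3, 17.8 and 16.8 in Exp1_Dox (-0.17 ± 0.09, adjusted p = 0.307, and 0.0256 with the replicate block).

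Clec2l (ENSMUSG00000079598), a lectin-like gene known from brain, had means of 0.862 CPM in NoDox_DMSO, 0.708 in Dox_DMSO, 1.68 in NoDox_Entinostat and 2.73 in Dox_Entinostat. It rose with entinostat in the presence of doxycycline (1.93 ± 0.46, adjusted p = 0.0027), and without it the change was 0.96 ± 0.45 (adjusted p = 0.0953; leaving out 1 library gave 0.0311, without the first Dox_DMSO library, to 0.284). Without the 2 libraries that stood apart, Clec2l also rose with entinostat without doxycycline (1.13, adjusted p = 0.011). Among CLEC genes under 1 CPM, Clec11a, a secreted growth factor, rose with entinostat without (1.73 ± 0.45, adjusted p = 0.00714) and with doxycycline (2.22 ± 0.48, adjusted p = 0.00159). Clec2f rose with entinostat without doxycycline (1.21 ± 0.46, adjusted p = 0.0463), a call lost without the 2 libraries that stood apart (0.91, adjusted p = 0.0695). Clec1b, a platelet receptor for podoplanin whose exons overlap those of Clec9a, passed in none of the comparisons.

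The paired receptors on chromosome 7 are an inhibitory receptor, Pirb (ENSMUSG00000058818, 3711409 to 3720391), which binds MHC class I and recruits PTPN6, and activating relatives such as Lilra6 (ENSMUSG00000030427, 3908280 to 3915503). Pirb stood at 0.225, 0.478 and 0.655 CPM in NoDox_DMSO, 0, 0.0216 and 0.0215 in Dox_DMSO, 6.26, 9.23 and 8.45 in NoDox_Entinostat and 0.649, 2.75 and 1.83 in Dox_Entinostat. Each group was apart from the one it was compared with. Entinostat raised Pirb by 4.13 ± 0.50 without doxycycline (adjusted p = 3.52e-05); with doxycycline it went from 2 to 233 counts, a ratio of 116 (counting interval 31.7 to 963, adjusted p = 2.32e-05). Doxycycline lowered it from 62 to 2 counts in DMSO, a ratio of 30.3 (8.05 to 256, adjusted p = 0.00407), and by 2.19 ± 0.45 on the log2 scale in entinostat (adjusted p = 0.00621). In experiment 1 it had 0.252, 0.224 and 0.372 CPM in Exp1_NoDox and 0.0104, 0.0305 and 0.0344 in Exp1_Dox, again without overlap (-3.43 ± 0.43, adjusted p = 0.00456). Since no value in that table is under 1, a 1 may have been added to each count, which is not stated; with 1 taken off, the change was -4.13 (adjusted p = 0.00722).

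Lilra6 followed at lower levels: 0, 0.109 and 0.196 CPM in NoDox_DMSO, 0 in all 3 Dox_DMSO libraries, 0.819, 1.52 and 1.28 in NoDox_Entinostat and 0.112, 0.296 and 0.220 in Dox_Entinostat. The NoDox_Entinostat group stood above all others. It rose with entinostat by 3.53 ± 0.67 without doxycycline (adjusted p = 0.00142) and was at least 9.29-fold higher with it (adjusted p = 0.00338; this bound and the others take 3 counts over a group as the limit for 0). Doxycycline in entinostat changed it by -2.51 ± 0.62 (adjusted p = 0.0183), a call lost without the first or the third Dox_Entinostat library or the second or the third NoDox_Entinostat library (adjusted p from 0.0531 to 0.0737). In DMSO it was at least 4.57-fold lower with doxycycline, with an adjusted p of 0.0762 (0.0164, without the first NoDox_DMSO library, to 0.252 when 1 library was left out). Without the 2 libraries that stood apart, the adjusted p of that fall in DMSO was 0.0467. In experiment 1, where Lilra6 was not tested, it had 3, 8 and 7 counts without doxycycline and the file minimum of 1 in all 3 libraries with it. Since Pirb, Lilra6 and Pira2 are near copies of each other, the way reads were shared among them is not known and their single values are uncertain.

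Lilr4b (ENSMUSG00000112023, chromosome 10, 51480632 to 51486703) stood at 0.382, 0.673 and 1.03 CPM in NoDox_DMSO, 0.663, 0.173 and 0.151 in Dox_DMSO, 1.49, 1.11 and 2.28 in NoDox_Entinostat and 0.649, 0.591 and 0.903 in Dox_Entinostat. The NoDox_Entinostat libraries were the highest, and the other 3 groups overlapped. No change passed with all libraries; that with entinostat without doxycycline was 1.23 ± 0.50 (adjusted p = 0.0603). Without the 2 libraries that stood apart Lilr4b fell with doxycycline (-2.08 in DMSO, adjusted p = 0.0096, and -1.25 in entinostat, adjusted p = 0.016) and rose with entinostat (1.28 without doxycycline, adjusted p = 0.0136, and 2.12 with it, adjusted p = 0.0027). Its near copy Lilrb4a had values of 1.32 ± 0.52 (adjusted p = 0.0503) and 1.16 ± 0.59 (adjusted p = 0.101) with entinostat, and exons of both overlap the gene model Gm49339.

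Siglecf (ENSMUSG00000039013, chromosome 7, 43351341 to 43359531), an inhibitory sialic acid receptor known from eosinophils and alveolar macrophages, fell with doxycycline in all 3 settings. It stood at 0.575, 0.206 and 0.530 CPM in Exp1_NoDox and 0.0208, 0.0204 and 0.0458 in Exp1_Dox (-3.86 ± 0.59, adjusted p = 0.00912, and -4.47 with 1 taken off each count). In experiment 2 it stood at 0.404, 0.391 and 0.524 CPM in NoDox_DMSO, 0 in all 3 Dox_DMSO libraries, 1.89, 2.08 and 3.69 in NoDox_Entinostat and 0.0671, 0.136 and 0.0440 in Dox_Entinostat. Dox_Entinostat libraries thus stayed below NoDox_DMSO libraries. Doxycycline in DMSO left it at least 19.6-fold lower (adjusted p = 0.000392) and in entinostat changed it by -4.91 ± 0.47 (adjusted p = 0.000149). Entinostat raised it by 2.53 ± 0.39 without doxycycline (adjusted p = 0.00034) and at least 3.65-fold with it (adjusted p = 0.00425).

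Other SIGLEC genes were seen mainly in entinostat. Siglech, known from plasmacytoid dendritic cells and chosen here after its values were seen, had 16, 18 and 19 counts in NoDox_Entinostat, 0 in all 6 vehicle libraries and 0, 1 and 0 in Dox_Entinostat. It was at least 15.4-fold higher with entinostat without doxycycline (adjusted p = 0.000471) and 45.5-fold lower with doxycycline in entinostat (counting interval 7.81 to 1830, adjusted p = 0.00413). Siglec1 (CD169), a macrophage adhesion receptor, rose from 2 to 49 counts without doxycycline (ratio 21.4, 5.61 to 181, adjusted p = 0.00369) and was at least 8.29-fold higher with it (adjusted p = 0.0032).

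Of the TLR genes, Tlr6 and Tlr2, which pair to recognise bacterial lipopeptides, were the highest. Tlr6 (ENSMUSG00000051498, chromosome 5, 64952031 to 64960097) stood at 0.921, 0.934 and 0.633 CPM in NoDox_DMSO, 0.491, 0.367 and 0.431 in Dox_DMSO, 3.63, 3.82 and 3.72 in NoDox_Entinostat and 1.59, 2.21 and 2.40 in Dox_Entinostat. The 4 groups did not overlap. Entinostat raised it by 2.16 ± 0.26 without (adjusted p = 2.81e-05) and 2.26 ± 0.27 with doxycycline (adjusted p = 2.46e-05). The doxycycline changes were near the threshold: -0.95 ± 0.28 in DMSO (adjusted p = 0.0491), -0.85 ± 0.24 in entinostat (adjusted p = 0.0268) and, from 0.539, 0.655 and 0.857 to 0.374, 0.366 and 0.332 CPM, -0.93 ± 0.22 in experiment 1 (adjusted p = 0.0381). Leaving out any library but the third NoDox_DMSO or the first Dox_Entinostat ended the call in DMSO (adjusted p from 0.053 to 0.184). That in experiment 1 was lost without any but the first Exp1_NoDox (0.0842 to 0.138), and that in entinostat without any Dox_Entinostat library or the second or the third NoDox_Entinostat (0.0587 to 0.0964).

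Tlr2 (ENSMUSG00000027995, chromosome 3, 83836272 to 83841767) stood at 0.225, 0.0434 and 0.306 CPM in NoDox_DMSO, 0.0491, 0.0216 and 0 in Dox_DMSO, 1.83, 3.18 and 3.76 in NoDox_Entinostat and 0.627, 0.750 and 0.484 in Dox_Entinostat. Both entinostat groups stood above both vehicle groups, which overlapped each other. It rose with entinostat by 3.92 ± 0.53 without doxycycline (adjusted p = 7.8e-05) and from 3 to 83 counts with it, a ratio of 27.5 (9.1 to 136, adjusted p = 0.000239). Doxycycline lowered it in entinostat (-2.23 ± 0.47, adjusted p = 0.00729). In DMSO it went from 26 to 3 counts, a ratio of 8.48 (2.6 to 43.8) with an adjusted p of 0.0516, and 0.0129 without the 2 libraries that stood apart; leaving out 1 library gave 0.0149 to 0.214, and it passed without either of them alone or without the second NoDox_DMSO library. In experiment 1 it had 0.312, 0.144 and 0.248 CPM in Exp1_NoDox and 0.104, 0.0102 and 0.0916 in Exp1_Dox, without overlap (-1.75 ± 0.62, adjusted p = 0.131, and 0.00332 with the replicate block).

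Tlr3, the endosomal receptor for double-stranded RNA, had 0 counts in all 3 NoDox_DMSO libraries and 15, 41 and 43 in NoDox_Entinostat, at least 28.8-fold more (adjusted p = 0.000251). With doxycycline it had 0, 3 and 0 counts in DMSO and 9, 14 and 13 in entinostat (adjusted p = 0.00517). Doxycycline in entinostat changed Tlr3 by -1.21 ± 0.56 (adjusted p = 0.127). Without the 2 libraries that stood apart that change was -1.52 (adjusted p = 0.0186). Its exons overlap those of the antisense gene Gm45542, and the library kit does not keep the strand. Tlr4, the lipopolysaccharide receptor, never exceeded 16 counts in experiment 2 and stood at the file minimum in every library of experiment 1. It had 0, 1 and 0 counts in NoDox_DMSO and 7, 16 and 16 in NoDox_Entinostat, a ratio of 34 (counting interval 5.76 to 1380). With doxycycline it had 0 counts in DMSO and 5, 3 and 3 in entinostat. Tlr4 was too low to test with all libraries. Without the 2 that stood apart it rose with entinostat without doxycycline (4.89, adjusted p = 0.000342).

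**Figure D4:**
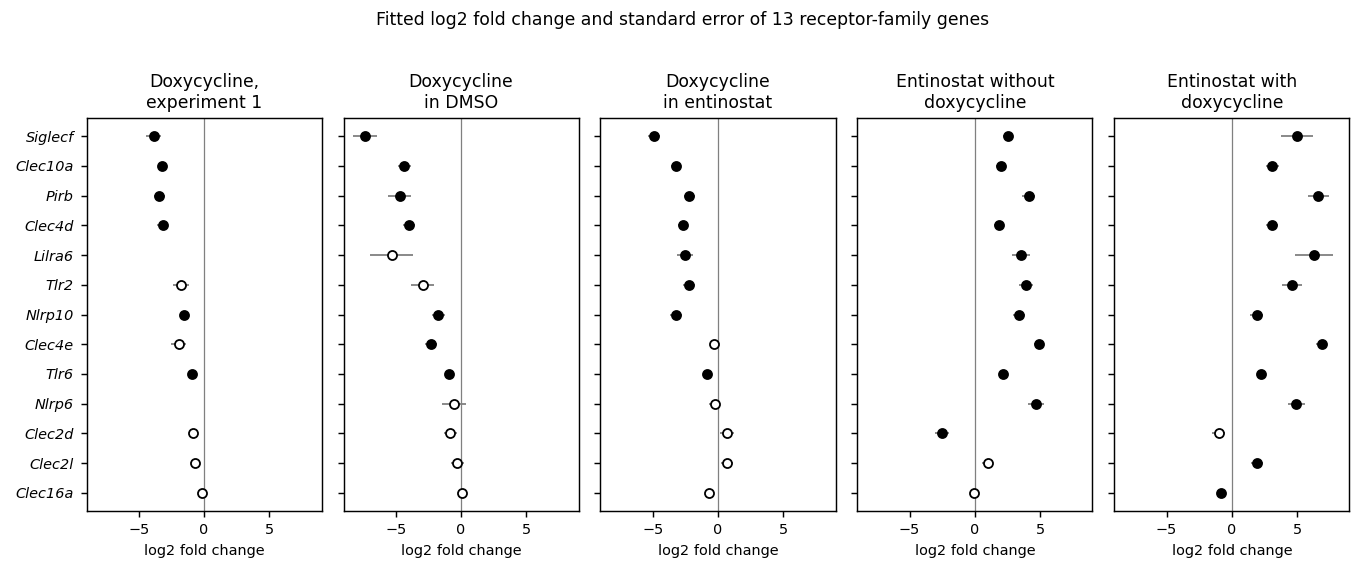
Fitted log2 fold change of 13 receptor-family genes in 5 comparisons, with the standard error as a line; filled points passed the test (edgeR adjusted p under 0.05) and open points did not, and a gene without a point was not tested. Doxycycline points of the upper 7 genes lie left of 0 and entinostat points right of it; fitted values of Siglecf and Lilra6 where Dox_DMSO had no count depend on the prior count, and the comparisons of experiment 2 share libraries.

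Among the NLRP genes, Nlrp10 (ENSMUSG00000049709, chromosome 7, 108921852 to 108930178), a family member without the ligand-binding repeats, stood at 0.404, 0.717 and 1.09 CPM in NoDox_DMSO, 0.147, 0.216 and 0.280 in Dox_DMSO, 4.31, 9.36 and 9.24 in NoDox_Entinostat and 0.470, 1.16 and 0.815 in Dox_Entinostat. NoDox_Entinostat stood above the rest, and Dox_Entinostat overlapped NoDox_DMSO. It rose with entinostat by 3.37 ± 0.44 without (adjusted p = 5.8e-05) and 1.90 ± 0.50 with doxycycline (adjusted p = 0.0052), and fell with doxycycline in entinostat (-3.23 ± 0.43, adjusted p = 0.000587). In DMSO the change of -1.76 ± 0.50 (adjusted p = 0.0442) lost its call when any of 8 of the 12 libraries was left out (adjusted p from 0.0537 to 0.205); those that could be left out were the first NoDox_DMSO, the first NoDox_Entinostat and the first and second Dox_Entinostat. In experiment 1 Nlrp10 went from 0.875, 0.610 and 0.654 CPM to 0.218, 0.214 and 0.309, without overlap (-1.53 ± 0.24, adjusted p = 0.0106).

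Nlrp6 (ENSMUSG00000038745, chromosome 7, 140920902 to 140929192), an inflammasome sensor known from the gut lining, stood at 0.0225, 0.0869 and 0.0873 CPM in NoDox_DMSO, 0.0246, 0.0216 and 0.0862 in Dox_DMSO, 0.924, 1.88 and 2.33 in NoDox_Entinostat and 0.850, 2.25 and 1.19 in Dox_Entinostat. The entinostat groups overlapped each other and stood above both vehicle groups. It rose by 4.65 ± 0.61 without (adjusted p = 6.01e-05) and 4.91 ± 0.65 with doxycycline (adjusted p = 4.95e-05), and its doxycycline changes were -0.53 ± 0.89 in DMSO (adjusted p = 0.838) and -0.26 ± 0.44 in entinostat (adjusted p = 0.666). Nlrp3, the best known inflammasome sensor, had 0, 6 and 5 counts in NoDox_Entinostat and 0 in the other 9 libraries of experiment 2.

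Compared per length of exons, the order in NoDox_Entinostat was led by Clec4d at 6.12 ± 2.51 CPM per kb (SD, n = 3), Clec4e at 4.11 ± 1.70 and Clec10a at 3.16 ± 0.527, which overlapped within their spread. Clec16a at 1.88 ± 0.575, Pirb at 1.79 ± 0.344 and Nlrp10 at 1.70 ± 0.640 followed, and did not differ beyond their spread from each other. Tlr6 at 0.9997 ± 0.0248, Tlr2 at 0.970 ± 0.329 and Siglecf at 0.915 ± 0.353 overlapped as well. In NoDox_DMSO the order was led by Clec2d at 7.41 ± 0.442 CPM per kb, followed by Clec16a at 1.96 ± 0.176 and Clec4d at 1.75 ± 0.486. In Dox_Entinostat Clec4e led with 3.27 ± 0.308 CPM per kb, ahead of Clec2d at 2.06 ± 0.329.

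Whether the effect of doxycycline differed between entinostat and DMSO was tested for all 23 receptors. By edgeR 0 differed upwards (0.166% of all genes tested) and 0 downwards (0.106% of all genes), with 2 and 3 at an unadjusted p under 0.05, and DESeq2 called 1 upwards, Clec4e (0.835% of all genes). Without the 2 libraries that stood apart 3 differed upwards (Clec2d, Clec4e and Clec4d; 21.5% of all genes) and 3 downwards (Clec16a, Nlrp10 and Tlr3; 30% of all genes, 4646 of 15478) of 25 tested receptors, so that the receptors' shares were below those of all genes. The difference had a large standard error for most: it was 1.12 ± 0.60 for Clec10a, 2.50 ± 1.09 for Pirb and -1.47 ± 0.67 for Nlrp10.

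Signalling partners of these receptors were counted in the same comparisons, in which 8.36%, 5.53% and 15.1% of all genes fell and 5.26%, 3.77% and 8.96% rose with doxycycline in experiment 1, in DMSO and in entinostat. Of the ITAM genes 8 of 11 tested fell in experiment 1, 9 of 13 in DMSO and 9 of 13 in entinostat, and 0 rose in each; their medians were -0.99, -1.09 and -1.46. Lcp2, the adaptor downstream of these receptors, changed by -3.97 ± 0.30 in experiment 1 (adjusted p = 0.00116) and -5.66 ± 0.29 in DMSO (adjusted p = 4.86e-07). Tyrobp, the ITAM adaptor itself, went from a mean of 0.205 CPM in NoDox_DMSO to 0 in Dox_DMSO, and Fcer1g did not exceed a group mean of 0.165 CPM. Of the ITIM genes 5 of 10 fell in experiment 1, 5 of 11 in DMSO and 8 of 11 in entinostat, and 0 rose, with Ptpn6 at -0.78 ± 0.08, -1.04 ± 0.18 and -1.13 ± 0.18. TLR adaptors and accessory proteins fell in 7 of 24, 6 of 28 and 10 of 28 cases and rose in 1 each, so that most did not pass; Ly96, the partner of TLR4, was at -1.72 ± 0.12 in experiment 1, and Irak2 rose by 1.53 ± 0.20 in DMSO.

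Beside those same shares of all genes, inflammasome components fell in 4 of 12, 5 of 13 and 7 of 13 cases and rose in 1 each, which was the cytokine gene Il1b (3.32 ± 0.23 in experiment 1, 3.63 ± 0.43 in DMSO and 2.48 ± 0.39 in entinostat). The 4 that fell in experiment 1 were Gsdmd, the pore-forming effector (-1.19 ± 0.10), and the sensor genes Nlrc4 (-3.66 ± 0.49), Naip2 (-1.50 ± 0.16) and Naip6 (-3.00 ± 0.47), and the other 7 did not pass; Naip genes are near copies of each other, so their single values are uncertain. NF-kB and IRF factors fell in 4 of 16, 2 of 16 and 4 of 16 cases and rose in 1, 0 and 0, and their medians of -0.12, -0.04 and -0.32 lay nearer to those of all genes; the largest fall among them was that of Irf5 (-1.62 ± 0.15, -3.81 ± 0.42 and -2.04 ± 0.34). Other nucleic acid and NLR sensors fell in 3 of 12, 2 of 14 and 4 of 14 cases, led by Tmem173, which encodes STING (-3.89 ± 0.24, -5.29 ± 0.57 and -4.06 ± 0.39). For these lists the median of all genes tested was 0.02, 0.05 and -0.08.

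With entinostat, 30.3% of all genes rose and 16.9% fell without doxycycline, and 33.9% rose and 29.9% fell with it. Inflammasome components rose in 8 of 13 cases without and 10 of 13 with doxycycline and fell in 0, with medians of 2.08 and 2.15, beside 0.07 and 0.14 for all genes; P2rx7, the ATP-gated channel upstream of NLRP3, rose by 3.71 ± 0.21 and 2.75 ± 0.21, and Il18 by 7.56 ± 0.83 and 6.93 ± 0.86. Other sensors rose in 9 and 10 of 14 cases and fell in 1 and 3, with Tmem173 at 3.23 ± 0.37 and 4.46 ± 0.59. TLR adaptors rose in 10 and fell in 3 of 28 cases without doxycycline, and rose in 13 and fell in 13 with it; Cd14, the lipopolysaccharide coreceptor, rose by 3.89 ± 0.39 with doxycycline. ITAM genes rose in 2 and 3 and fell in 2 and 4 of 13 cases, where Btk changed by -1.18 ± 0.21 without doxycycline. NF-kB and IRF factors rose in 6 and 5 and fell in 2 and 5 of 16 cases, shares near those of all genes. ITIM genes rose in 3 and 3 and fell in 3 and 6 of 11 cases, with medians of -0.05 and -0.61. The shares of ITIM genes that fell lay above those of all genes.

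Markers of cells that normally carry these receptors moved in the same comparisons. In bulk RNA, fewer cells of a type and less RNA per cell cannot be told apart. The macrophage and monocyte list, with 15 of 18 genes in the table, summed to between 19.7 and 22.7 CPM per library in NoDox_DMSO, 13.9 and 17.1 in Dox_DMSO, 63.1 and 67.6 in NoDox_Entinostat and 31.1 and 46.7 in Dox_Entinostat, and Ccr2 made up between 66.0% and 85.7% of it. Its defining genes Adgre1, C1qb and Itgam had group means between 0 and 0.0489 CPM, and Csf1r at most 0.221, whereas Lyz2 had 0.477 in NoDox_DMSO and 5.35 in NoDox_Entinostat. The mast cell and basophil list summed to between 10.3 and 14.1 CPM in NoDox_DMSO, 3.15 and 11 in Dox_DMSO, 59.4 and 149 in NoDox_Entinostat and 41.3 and 83.8 in Dox_Entinostat, with Fcer1a the highest in entinostat and Mcpt8 at most 0.00727. The neutrophil list stayed at or under 4.43 CPM.

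Marker genes of several unrelated cell types rose with entinostat too. Without doxycycline, 6 of 6 tested macrophage and monocyte markers rose, 7 of 8 mast cell and basophil, 3 of 3 B cell, 2 of 2 T and NK cell, 8 of 10 megakaryocyte and platelet and 6 of 6 stromal and endothelial markers, and 0 fell in each of these lists, beside 30.3% of all genes called higher. With doxycycline, 4, 8, 2, 2, 7 and 5 of the same genes rose in these lists in that order and 0 fell, beside 33.9% of all genes. Dendritic cell markers did so less: 3 of 6 rose without doxycycline (median 1.05) and 1 of 6 with it (median -0.02). Of 4 neutrophil markers, 3 and 2 rose, and 0 fell in either list. Of 14 erythroid markers 6 rose and 4 fell without doxycycline, and 4 rose and 5 fell with it. Many listed markers were too low to test. Tested were 6 of 18 macrophage and monocyte, 3 of 10 B cell, 2 of 12 T and NK cell and 6 of 12 stromal and endothelial genes. In NoDox_Entinostat 0 B cell markers reached a mean of 1 CPM, and Lck made up 89.4% of the T and NK cell sum. Markers kept by the filter through an entinostat group alone could hardly be found lower with entinostat. The part of these marker genes, or of cells that carry them, in the receptor values was not tested.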

How the data were processed

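RNA-seq counts of 18 libraries in 2 tables were used, and the deposited values are raw read counts per gene made by the authors. The genome build mm10 and the tools DESeq2, STAR and bcl2fastq 2.17.1.14 are named, per the submitters' processing notes; the counter and annotation are not given in the sources used here. Per the labels' protocols, RNA was polyadenylated and the kit was TruSeq v2, which does not keep the strand. Experiment 1 was matched by symbol and experiment 2 by its symbol column, with coordinates and exon lengths from GENCODE M21 for 67 of 68 genes. The receptor genes and all lists were chosen with earlier results of these data known.

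Each table was fitted with edgeR 4.0.16 in R 4.3.3 (quasi-likelihood test, TMM, filterByExpr, two-sided, Benjamini-Hochberg over all 13811 and 15051 genes kept). Experiment 2 was 1 fit of 12 libraries; the tables were never tested against each other. The biological coefficient of variation was 0.194 and 0.242. Tested on simulated data, the fit recovered 74% of 2-fold and 98% of 4-fold changes in experiment 1, and 35.4% and 95.8% in DMSO. False calls numbered 10 and 5. The simulation gave every gene the same dispersion, had no library that stood apart and changed genes at all levels. Its rates therefore do not give the power for receptors at low counts. Replicates are biological per the labels, and p-values measure the spread between libraries of 1 line. Counting intervals are exact at 95% and, without molecular identifiers, cover counting error only. Named genes are those tested, called at least once and with a group mean of at least 1 CPM; values per library are given for up to 5 genes per family that reach it. Same-number libraries correlated, as deviations from group means, at 0.959, 0.894 and 0.523 in experiment 1, 0.617, 0.688 and 0.121 for entinostat without and 0.117, 0.104 and 0.106 with doxycycline, all above a limit of 0.1; different numbers reached 0.594, 0.557 and 0.115 in these comparisons, above some same-number values in each. Alternatives were RLE factors, library size alone, other filters, DESeq2 1.42.0, the replicate block, 2 groups alone, counts minus 1 and libraries left out.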

Additional observations from a re-analysis of the deposited data

How the results depend on the processing

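No receptor value changed direction under an alternative with a call on both sides. Counts of receptors called that moved by over 1.5 times were as follows. With DESeq2, 1 rose with doxycycline in DMSO (4.97% of all genes) and 1 differed upwards in the interaction (0.835% of all genes), where edgeR gave 0. Keeping genes with 1 CPM or more in 3 libraries, which tests fewer genes, left 2 lower in experiment 1 (6 otherwise). It left 9 and 10 higher with entinostat without and with doxycycline (17 and 16 otherwise), beside 27.4% and 31.6% of all genes. No filter gave 2 lower with entinostat and doxycycline and 1 upward in the interaction. Without the first Dox_DMSO and NoDox_Entinostat libraries, 11 fell with doxycycline in DMSO, 14 fell and 1 rose with it in entinostat, and 3 differed upwards and 3 downwards in the interaction; the cause was not tested. The 2 groups compared alone gave 11 higher with entinostat and doxycycline. Calls over all genes moved between settings too. Counts in this section without a share of all genes therefore cannot tell a change in the receptors from a change in calls at large.

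Leaving out 1 library at a time gave 5 to 6 lower in experiment 1, 5 to 8 in DMSO and 7 to 13 in entinostat, with 0 to 1 higher there. It gave 17 to 22 higher with entinostat without and 16 to 18 with doxycycline (lower 1 to 1 and 1 to 2), and 0 to 3 upward and 0 to 1 downward in the interaction, the 3 without the first Dox_DMSO or the first NoDox_Entinostat library.

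With a replicate block, 13 receptors fell in experiment 1 (24.7% of all genes). In DMSO, where the numbers did not meet the limit for pairing (0.622, 0.643 and 0.0998), 1 rose. In entinostat (0.0932, 0.144 and 0.0573) 10 fell. Library size alone moved the median of all genes from 0.07 to 0.32 with entinostat without and from 0.14 to 0.28 with doxycycline, and from -0.08 to -0.22 for doxycycline in entinostat; 19 and 17 receptors rose and 10 fell then. Depth limits the 43 of 59 and 29 of 55 receptors that never reached 10 counts in a library.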
